A study of Mus musculus with 4 samples.

Results

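Cxcl12 (ENSMUSG00000061353), Cxcr4 (ENSMUSG00000045382) and Ackr3 (ENSMUSG00000044337), a chemokine and its receptors, were followed through every type of nucleus in mouse brain lesions and the surrounding parenchyma 21 days after photothrombotic injury (21 dpi). They were chosen by name as 3 of 33696 gene features, and their UMIs (unique molecular identifiers, counted RNA molecules) were summed by class of nucleus, fibroblast state, region and library. The library labelled control carried the genotype label WT. The library labelled Cxcl12-cKO came from Col1a2(creER); Cxcl12(flox) mice, in which a tamoxifen-inducible Cre under the Col1a2 promoter is meant to delete Cxcl12 in fibroblasts. Each library pooled nuclei of 1 male and 1 female mouse, both groups received the same injury and were collected at the same time, and the study's methods allow several kinds of controls for such crosses, among them littermates without Cre or with 1 flox allele. Lesion and parenchyma of each genotype were given lipid-anchored multiplexing tags, mixed and run as 1 library, so each genotype had 1 library and no difference between genotypes could be tested. Intervals below are exact 95% intervals for counting error only, and a difference between the libraries may come from genotype, mouse, dissection or library, which cannot be told apart.

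Cxcl12, also called SDF-1, is a secreted CXC chemokine that binds heparan sulfate and guides leukocytes, progenitor cells and migrating interneurons. Cxcr4 is its signalling G protein-coupled receptor and is known from T cells, myeloid cells and endothelial tips, whereas Ackr3, also called CXCR7, is an atypical receptor that couples to arrestins, takes up the ligand and lowers its amount around the cell. In the resting brain Cxcl12 is known from vessels, meninges and some neurons.

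The region of each nucleus rested on 4 tags, and their 15-base sequences, printed whole in capitals from 5′ to 3′, are shown because every comparison of lesion with parenchyma depends on them.
CMO309, control lesion: GTTGATCTATAACAG
CMO310, control parenchyma: GCAGGAGGTATCAAT
CMO311, Cxcl12-cKO lesion: GAATCGTGATTCTTC
CMO312, Cxcl12-cKO parenchyma: ACATGGTCAACGCTG

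Of 23489 barcodes, 21743 were kept, between 2838 and 8095 in a matrix. Kept matrices held 30864931 to 48051671 UMIs, with medians per nucleus of 2962 and 2975 in the lesions but 15915 and 16648 in the parenchyma. In each matrix 95.3% to 97.6% of tag UMIs were of the matrix's own tag. No barcode was shared by the regions of 1 library, and 1 to 22 barcodes were shared between matrices of different libraries. Classes were clusters named from marker lists. All markers of each class were higher in it than in the other nuclei, except for 1 of 5 neural progenitor markers and 1 of 6 osteoblast lineage markers. The latter had no UMI in its class. As the names came from these same lists, this does not test them. The 829 nuclei of 5 subclusters with markers of another lineage were kept apart as mixed nuclei. Clusters that were not divided into subclusters, such as the oligodendrocyte-like and osteoblast lineage-like ones, were not screened in this way.

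The targeted gene went against its label. In lesional fibroblast-like nuclei Cxcl12 was counted with 1519 UMIs in 4178 nuclei of the library labelled control and with 3141 UMIs in 4100 nuclei of the library labelled Cxcl12-cKO. These were levels of 106 (101 to 112) and 214 (207 to 222) UMIs per 1000000 UMIs of the class (CPM), a 2.02-fold higher level in the second library. On the log2 scale the ratio, Cxcl12-cKO over control as in all ratios of the libraries, was 1.01 (0.92 to 1.10). Median depths were alike, at 3053 and 3078.5 UMIs, and the 6 summed fibroblast markers were not higher with Cxcl12 but lower, at 4144 and 3639 CPM. Col1a2, whose promoter drives the Cre, was at 1978 and 1429 CPM. The sources used here do not give the part of Cxcl12 that the flox allele removes or whether intronic reads were counted. These UMIs therefore do not show whether the gene was deleted. Whether the labels of the libraries were exchanged was not tested, and an exchange would turn the sign of every ratio between them.

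Few genes of the class differed as much between the libraries. Of 14337 genes with at least 50 UMIs over both libraries, 468 (3.26%) were more than 1.5-fold higher and 371 (2.59%) more than 1.5-fold lower in the library labelled Cxcl12-cKO. Cxcl12 held position 87 from the highest ratio, with 0.600% of genes above it. The median log2 ratio over all these genes was 0.003, so the scaling by total UMIs left the typical gene unshifted.

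Under the Cxcl12-cKO label more nuclei had Cxcl12 UMIs and more nuclei had many of them. In the library labelled control 77.5% of lesional fibroblast-like nuclei had no Cxcl12 UMI, 15.5% had 1, 3.61% had 2, 2.63% had 3 to 4 and 0.790% had 5 or more. In the library labelled Cxcl12-cKO the shares were 63.7%, 20.6%, 7.29%, 5.24% and 3.15%. Each share of nuclei with a UMI was thus higher there, and the upper end also differed, with at most 9 UMIs in a nucleus of the first library and 23 in the second. The 33 and 129 nuclei with 5 or more UMIs held 203 and 978 UMIs, or 13.4% and 31.1% of all Cxcl12 UMIs of the class. After each nucleus was thinned to 1000 UMIs, which left out 112 and 103 shallower nuclei, a Cxcl12 UMI was found in 8.51% (7.67 to 9.41) and 15.7% (14.6 to 16.9) of nuclei. Lesional excitatory neuron-like nuclei, used as the measure of free RNA, gave 0.394% and 0% after thinning, and 3.35% and 5.02% at their full median depths of 14001 and 12881 UMIs.

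**Figure D1:**
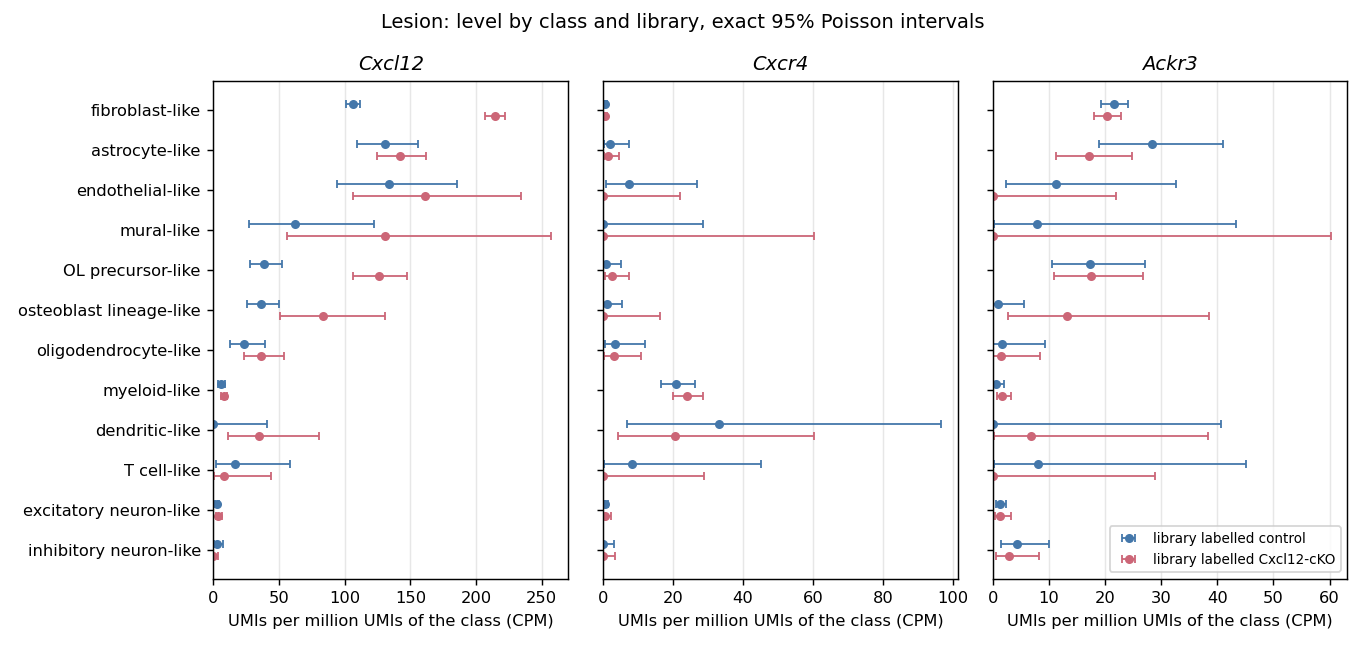
Level of Cxcl12, Cxcr4 and Ackr3 (horizontal axes, CPM) in 12 classes of lesional nuclei (vertical axis), with points for the libraries labelled control (blue) and Cxcl12-cKO (red) and exact 95% Poisson intervals. The Cxcl12 points of fibroblast-like nuclei sit at 106 and 214 CPM, the Cxcr4 points of myeloid-like nuclei at 20.9 and 24.0 CPM, and the Ackr3 points of fibroblast-like nuclei at 21.5 and 20.3 CPM.

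The fibroblast states differed in Cxcl12. Late inner-like nuclei, led by Lama3 and Eln and named from Fgf13, Cdh18 and Sema3c, numbered 946 and 1304 and had 134 (control) and 311 CPM (Cxcl12-cKO). Dural-like nuclei, led by Npr3 and Ccn3, numbered 1276 and 940 and had 131 and 244 CPM. Leptomeningeal-like nuclei, a name that rests on 3 of 6 markers, numbered 370 and 463 and had 199 and 213 CPM. The last cluster, led by Ranbp3l, Trpm3, Ptgds and Dpp4, stayed unnamed, numbered 1586 and 1393, and had 39.0 and 80.2 CPM. Ranbp3l is itself 1 of the 6 leptomeningeal markers. The mean log2 fold of that list was higher in this unnamed cluster (1.45) than in the named one (1.19), but fewer than 3 of the markers passed the limits for a name. The values of leptomeningeal-like nuclei thus do not stand for all fibroblasts with leptomeningeal markers. No cluster was named from the lymphocyte-interactive markers Cd80, Ccl19 and Cxcl16, so that fibroblast state has no value here. The order of these clusters in Cxcl12 therefore does not place it.

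The ratios of the libraries followed from these values. The log2 ratio was 1.21 (1.05 to 1.37) in late inner-like, 0.90 (0.75 to 1.04) in dural-like and 1.04 (0.78 to 1.30) in the Ranbp3l cluster. It was 0.10 (-0.15 to 0.35) in leptomeningeal-like nuclei, where the 2 libraries overlapped. In the library labelled control the leptomeningeal-like nuclei had the highest level of the 4 states, but the late inner-like nuclei did in the library labelled Cxcl12-cKO. Each of these orders rested on 1 mouse, since dural-like nuclei were the highest in the female control mouse (144 CPM) and in the male mouse labelled Cxcl12-cKO (261 CPM). The Ranbp3l cluster was lowest in both. With the states weighted alike in both libraries, the class level was 109 and 208 CPM and the log2 ratio 0.93. Col1a2 was lower in the library labelled Cxcl12-cKO in all 4 states, from 4010 to 2487 CPM in the late inner-like and from 1102 to 801 CPM in the leptomeningeal-like nuclei.

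**Figure D2:**
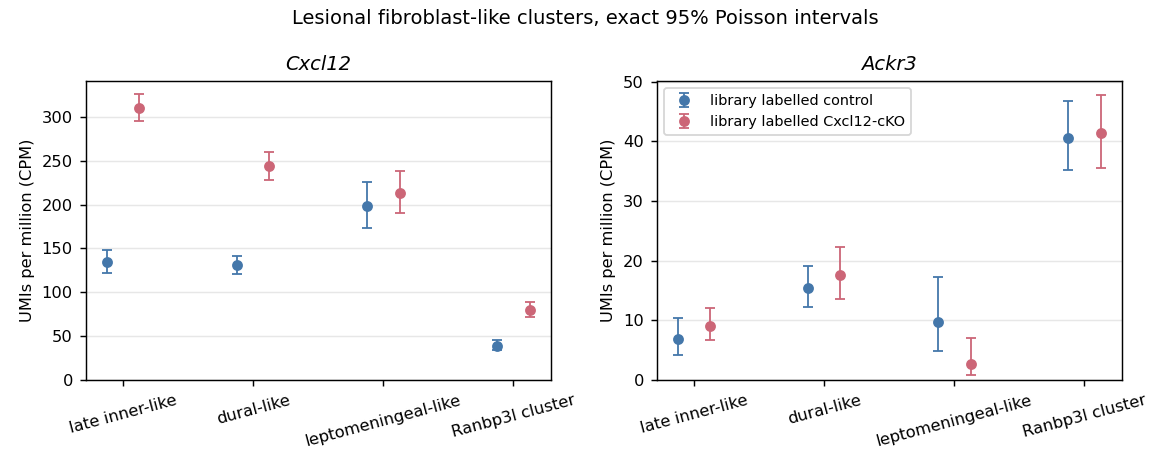
Cxcl12 (left) and Ackr3 (right) in the 4 lesional fibroblast-like clusters, in CPM (vertical axes), by library (blue, labelled control; red, labelled Cxcl12-cKO) with exact 95% Poisson intervals. Cxcl12 is at 39.0 and 80.2 CPM in the Ranbp3l cluster, the lowest of the 4, while Ackr3 is at 40.7 and 41.4 CPM there, the highest of the 4.

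Xist UMIs marked the nuclei of female mice and UMIs of Y-linked genes those of males, which gave 1 value per mouse. In fibroblast-like nuclei of the lesion Cxcl12 was at 101 CPM in the female and 108 CPM in the male mouse labelled control. It was at 263 CPM in the female and 187 CPM in the male mouse labelled Cxcl12-cKO. Both mice labelled Cxcl12-cKO were thus above both mice labelled control, which lay close to each other.

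The states spread more among the mice. In late inner-like nuclei the mice labelled control were at 105 (female) and 138 CPM (male), and those labelled Cxcl12-cKO at 457 and 219 CPM. The female mouse labelled Cxcl12-cKO stood far above the other 3, with a log2 ratio to the female control of 2.11 (1.79 to 2.47) against 0.66 (0.43 to 0.90) for the males. In dural-like nuclei the control mice were at 144 and 108 CPM and the other pair at 257 and 261 CPM. In the Ranbp3l cluster the pairs were at 43.3 and 38.7 CPM and at 81.2 and 81.0 CPM. In these 2 states, as in late inner-like nuclei, the mice of the libraries did not overlap. In leptomeningeal-like nuclei the control mice spanned 108 to 234 CPM and the mice labelled Cxcl12-cKO lay between them, at 222 and 191 CPM.

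**Figure D3:**
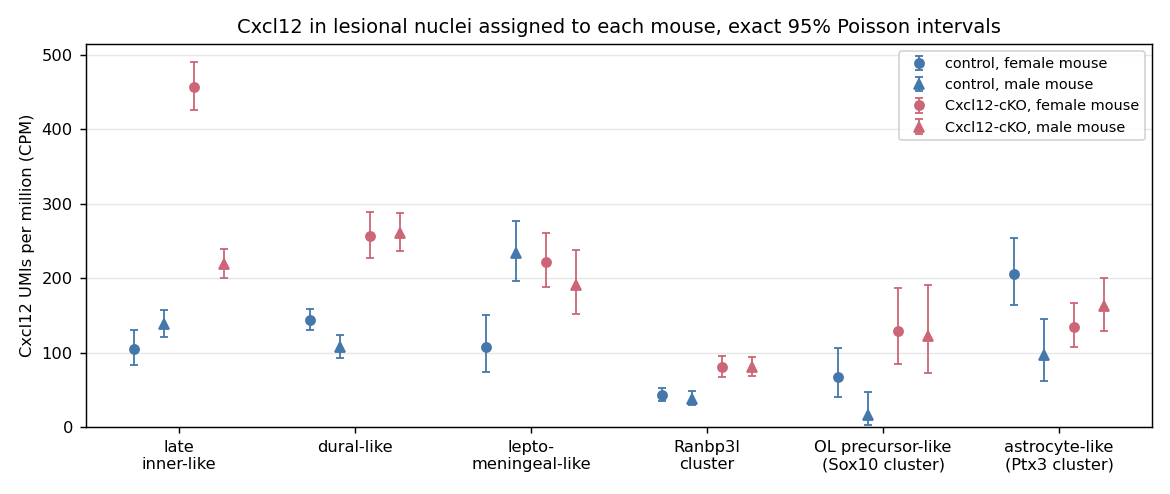
Cxcl12 in lesional nuclei assigned to each of the 4 mice (vertical axis, CPM; circles, female; triangles, male; blue, library labelled control; red, library labelled Cxcl12-cKO) in 6 clusters, with exact 95% Poisson intervals. The late inner-like nuclei of the female mouse labelled Cxcl12-cKO stand highest at 457 CPM, and in the leptomeningeal-like nuclei the control mice at 108 and 234 CPM enclose the others.

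Astrocyte-like nuclei were a further place of Cxcl12 in the lesion. They held 129 UMIs in 231 nuclei (131 CPM) of the library labelled control and 225 UMIs in 316 nuclei (142 CPM) of the other. The log2 ratio was 0.12 (-0.20 to 0.44). Nearly all of it was in an unnamed cluster led by Tnfsf11, Ptx3 and Slco1a4, with 127 and 225 UMIs, or 158 and 149 CPM. A cluster led by Hes5 and Gpc5 had 10.9 CPM in the lesion labelled control and none in the other. The summed fibroblast markers were at 277 and 167 CPM in the Ptx3 cluster, against 4144 and 3639 CPM in fibroblast-like nuclei, and their part in its Cxcl12 level was not tested. By mouse this cluster was at 206 (female) and 97.6 CPM (male) under the control label and at 135 and 162 CPM in the other, so the mice of the libraries overlapped. In the parenchyma, astrocyte-like nuclei had 0 and 2 Cxcl12 UMIs in 37 and 44 nuclei.

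Oligodendrocyte precursor-like nuclei also had more Cxcl12 in the library labelled Cxcl12-cKO. They had 42 UMIs in 292 nuclei (38.4 CPM) of the library labelled control and 151 UMIs in 278 nuclei (126 CPM) of the other. Their log2 ratio was 1.70 (1.21 to 2.24). The class joined a cluster led by Neu4, with 11 and 87 UMIs (22.9 and 119 CPM), and a cluster led by Sox10 and Gjc3, with 31 and 64 UMIs (50.4 and 137 CPM). By mouse the class was at 46.2 and 15.1 CPM under the control label and at 143 and 94.0 CPM in the other, with no overlap. Fibroblast markers moved with it in the Neu4 cluster, from 1450 to 1849 CPM, and less in the Sox10 cluster, from 280 to 308 CPM. The Neu4 levels were below those of fibroblast-like nuclei but far above those of the Ptx3 cluster, both given above. The Neu4 cluster was not divided into subclusters and so was not screened for markers of another lineage. The part of fibroblast RNA in the difference was not tested. When each nucleus was assigned by its own markers, the log2 ratio of the class was 0.69.

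Vessels carried Cxcl12 in both regions. Lesional endothelial-like nuclei had 36 UMIs in 105 nuclei (134 CPM) and 27 UMIs in 55 nuclei (161 CPM), a log2 ratio of 0.27 (-0.51 to 1.02). In the parenchyma 16 UMIs fell on 8 nuclei and 42 UMIs on 13 nuclei, or 1103 (631 to 1792) and 1607 CPM (1158 to 2172). The log2 ratio of lesion over parenchyma was -3.07 (-3.93 to -2.09) for the library labelled control and -3.31 (-4.07 to -2.59) for the other. All 21 parenchymal endothelial-like nuclei were of 1 cluster led by Adh1, Car4 and Slc38a5, in which venous and capillary markers were raised alike (mean log2 fold 2.35 and 2.23). Its lesional nuclei had 13 UMIs in 42 nuclei (100 CPM) and 3 UMIs in 17 nuclei (43.6 CPM). A lesional cluster led by Col15a1 and Plvap had 23 and 24 UMIs, or 165 and 242 CPM. Mural-like nuclei, the pericytes and smooth muscle of vessels, had 8 and 8 UMIs in 51 and 19 lesional nuclei (62.2 and 131 CPM), and 0 and 3 UMIs in 9 and 12 nuclei of the parenchyma. Their interval, -0.54 to 2.68 around a log2 ratio of 1.07, left the direction unset.

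Osteoblast lineage-like nuclei, named from bone genes such as Ibsp and Sp7, had 37 UMIs in 363 nuclei (36.4 CPM) and 19 UMIs in 86 nuclei (83.6 CPM), a log2 ratio of 1.22 (0.32 to 2.03). Col1a2 was at 4997 and 2927 CPM in this class, higher than in fibroblast-like nuclei. Oligodendrocyte-like nuclei had 14 and 24 UMIs (23.3 and 36.0 CPM) and myeloid-like nuclei 20 and 41 UMIs in 1495 and 1944 nuclei (5.57 and 7.69 CPM). Dendritic-like nuclei had 0 and 5 Cxcl12 UMIs, and T cell-like nuclei 2 and 1.

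Neurons had few Cxcl12 UMIs at high depth. Excitatory neuron-like nuclei of the parenchyma had 90 UMIs in 2234 nuclei (2.23 CPM) of the library labelled control and 121 UMIs in 2138 nuclei (3.03 CPM) of the other. The ratio was 0.44 (0.04 to 0.86) on the log2 scale. These levels lay within the intervals of the lesional excitatory neuron-like nuclei used as the measure of free RNA, 2.49 (1.496 to 3.88) and 3.73 CPM (1.92 to 6.51), and after thinning 0.359% and 0.564% of the nuclei had a UMI. The measure is the same type of nucleus from the lesion, so this overlap cannot tell free RNA from Cxcl12 RNA of the neurons. The source of these UMIs was not tested, and neither the level of the class nor its ratio is read as expression in neurons. By mouse, the control values were 2.31 (female) and 1.85 CPM (male), and the others 2.47 and 3.65 CPM. Layer 6-like nuclei led by Syt6 and Foxp2 had 27 and 28 UMIs, or 5.46 and 5.76 CPM. Layer 5-like nuclei had 10 and 18 UMIs (3.81 and 8.44 CPM), upper layer-like nuclei 18 and 26 (2.12 and 2.99 CPM) and middle layer-like nuclei 4 and 12 (0.512 and 1.62 CPM). The intervals of the ratio included 0 in each of these 4 neuron types. Inhibitory neuron-like nuclei of the parenchyma had 4 and 13 UMIs, or 0.652 (0.178 to 1.67) and 1.86 CPM (0.988 to 3.17).

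In the lesion the 14 classes, ordered by Cxcl12 level, overlapped from one to the next. In neither library did the intervals of any of the 13 pairs of neighbours in this order stand apart, and the same held for Cxcr4 and for Ackr3. In the parenchyma the endothelial-like nuclei stood apart from the next class in both libraries.

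Cxcr4 was sparse and mainly myeloid. Lesional myeloid-like nuclei had 75 UMIs in 1495 nuclei of the library labelled control and 128 UMIs in 1944 nuclei of the library labelled Cxcl12-cKO, or 20.9 (16.4 to 26.2) and 24.0 CPM (20.02 to 28.5). The log2 ratio was 0.20 (-0.22 to 0.63), so a difference was not detectable at this depth. Of 11145 genes tested in this class 20.1% had a higher ratio, while 3.23% were more than 1.5-fold higher and 3.95% more than 1.5-fold lower in the library labelled Cxcl12-cKO. By mouse Cxcr4 was at 18.6 and 20.1 CPM in the control and at 24.9 and 23.7 CPM in the other library (female and male). These values were close within each library.

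The named myeloid states differed little in Cxcr4. Homeostatic microglia-like nuclei had 38 and 53 UMIs (19.6 and 21.4 CPM), and border-associated macrophage-like nuclei 33 and 67 UMIs (21.3 and 25.7 CPM). Both names rest on 3 of 6 markers. The mean log2 fold of the border-associated cluster was 2.89 on its own list and 3.22 on the neutrophil list, where fewer than 3 markers passed the limits. No cluster was named from the scar-associated macrophage markers, so that state has no value here. Dividing nuclei had 4 and 8 UMIs (40.6 and 31.8 CPM) and dendritic-like nuclei 3 and 3 UMIs (33.0 and 20.6 CPM), with intervals that overlapped those of the other states. After thinning, 2.00% and 2.19% of myeloid-like nuclei had a Cxcr4 UMI (4.62% and 5.81% unthinned, at median depths of 2045 and 2272 UMIs, with 93 and 116 nuclei left out). Oligodendrocyte-like nuclei, used as the measure of free RNA, had 0% in both libraries after thinning and 0.532% and 1.02% before it.

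Other classes had few Cxcr4 UMIs. T cell-like nuclei, in which Cxcr4 is well known, had 1 UMI in 94 and 0 UMIs in 91 lesional nuclei at median depths of 1172 and 1259 UMIs, or 8.10 CPM (0.205 to 45.1) and 0 CPM with an exact upper limit of 28.9 CPM (23.5 CPM by the limit of 3 UMIs). Both exact upper limits lay above the myeloid level, so T cells could not be set apart from myeloid-like nuclei at this depth. Lesional fibroblast-like nuclei had 7 and 9 UMIs (0.490 and 0.614 CPM) and lesional endothelial-like nuclei 2 and 0. In the whole parenchyma there were 7 and 10 Cxcr4 UMIs, of which 4 and 7 were in excitatory neuron-like nuclei.

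By clusters, most lesional Ackr3 UMIs were in fibroblast-like nuclei, at levels that were close in the 2 libraries. In the lesion it was counted with 308 and 298 UMIs, or 21.5 (19.2 to 24.1) and 20.3 CPM (18.1 to 22.8), a log2 ratio of -0.08 (-0.32 to 0.15). Of the genes tested 67.4% had a higher ratio. After thinning, 2.14% and 2.08% of these nuclei had an Ackr3 UMI (6.01% and 5.88% unthinned), against 0% and 0.215% of homeostatic microglia-like nuclei (0.116% and 0.502% unthinned, at median depths of 1993 and 2122.5 UMIs).

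Within the fibroblast-like class the order of states was another than for Cxcl12. The Ranbp3l cluster, low in Cxcl12, had 195 and 184 Ackr3 UMIs, or 40.7 (35.1 to 46.8) and 41.4 CPM (35.6 to 47.8). Dural-like nuclei had 15.4 and 17.5 CPM and late inner-like nuclei 6.79 and 9.04 CPM. Leptomeningeal-like nuclei had 11 UMIs (9.62 CPM) under the control label and 4 UMIs (2.72 CPM) in the other library, a log2 ratio of -1.72 (-3.93 to -0.07). The Ranbp3l cluster thus stood above the other 3 states in both libraries with no overlap of the intervals. By mouse it was at 33.9 (female) and 49.1 CPM (male) under the control label and at 54.9 and 34.0 CPM in the other, so that the mice of the 2 libraries overlapped.

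Ackr3 UMIs were also counted in glia and neurons. Lesional astrocyte-like nuclei had 28 and 27 UMIs, or 28.4 and 17.1 CPM, and their log2 ratio was -0.73 (-1.55 to 0.08). Of these 23 and 13 UMIs came from the nuclei of the female mice (45.4 and 19.6 CPM) and 3 and 7 from those of the males (10.51 and 13.3 CPM), so the lower value under the Cxcl12-cKO label rested on the female control mouse. Over 11 settings the ratio ran from -1.19 to 0.22. Oligodendrocyte precursor-like nuclei had 19 and 21 UMIs in the lesion (17.4 and 17.5 CPM), and the ratio of 0.01 had an interval of -0.96 to 0.99. It ran from -0.60 to 1.67 over 10 settings, 5 above and 5 below 0, with 7.53 and 26.4 CPM in the males. In the parenchyma they had 5 and 4 UMIs in 19 and 15 nuclei (46.8 and 44.6 CPM). Lesional myeloid-like nuclei had 2 and 9 UMIs, and lesional endothelial-like nuclei 3 and 0.

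Parenchymal excitatory neuron-like nuclei had 138 and 117 Ackr3 UMIs, or 3.41 and 2.93 CPM, a log2 ratio of -0.22 (-0.59 to 0.15). After thinning 0.538% and 0.376% of them had a UMI. Homeostatic microglia-like nuclei, the measure of free RNA, were at 0.516 (0.0131 to 2.88) and 2.02 CPM (0.656 to 4.71). The latter interval held the neuronal level in the library labelled Cxcl12-cKO. The microglia-like cluster was far shallower, with a median of 2040.5 UMIs against 15915 and 16648 in the parenchyma. Levels per UMI at such unlike depths cannot tell free RNA from Ackr3 RNA of the neurons, and the source was not tested. Lesional nuclei of the excitatory class were lower, with 10 and 4 UMIs or 1.31 and 1.24 CPM. The log2 ratio of lesion over parenchyma was -1.32 (-2.48 to -0.46) for the library labelled control and -1.08 (-3.14 to 0.16) for the other. Among parenchymal neurons an unnamed excitatory cluster led by Rxfp2 and Il1rapl2 had 39 and 34 UMIs (7.26 and 7.01 CPM). Somatostatin-like interneurons had 8 and 7 UMIs (6.26 and 4.20 CPM) and the Syt6 layer 6-like nuclei 27 and 29 UMIs (5.46 and 5.97 CPM). Upper layer-like nuclei had 17 and 17 UMIs (2.00 and 1.95 CPM) and middle layer-like nuclei 14 and 6 UMIs (1.79 and 0.811 CPM). The Syt6 nuclei were thus among the higher of these listed neuron types in Ackr3, below the Rxfp2 cluster in both libraries. Their Cxcl12 counts are not read as expression in neurons.

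All 3 genes were denser in the lesion than in the parenchyma, where neurons made up most nuclei. Over all nuclei Cxcl12 was at 59.7 and 128 CPM in the lesion and at 2.46 and 3.97 CPM in the parenchyma, log2 ratios of 4.60 (4.33 to 4.88) for the library labelled control and 5.003 (4.80 to 5.22) for the other. For Cxcr4 these ratios were 4.40 and 4.64, and for Ackr3 1.83 and 2.13. In whole regions, fewer cells of a type and less RNA per cell cannot be told apart. Within fibroblast-like nuclei, of which the parenchyma held 51 and 50, the Cxcl12 log2 ratio of lesion over parenchyma was 2.11 (1.02 to 3.87) and 3.06 (1.97 to 4.82), on 5 parenchymal UMIs in each library. For Ackr3 it was -0.98 (-1.84 to 0.24) and -0.58 (-1.61 to 0.99), on 9 and 6.

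**Figure D4:**
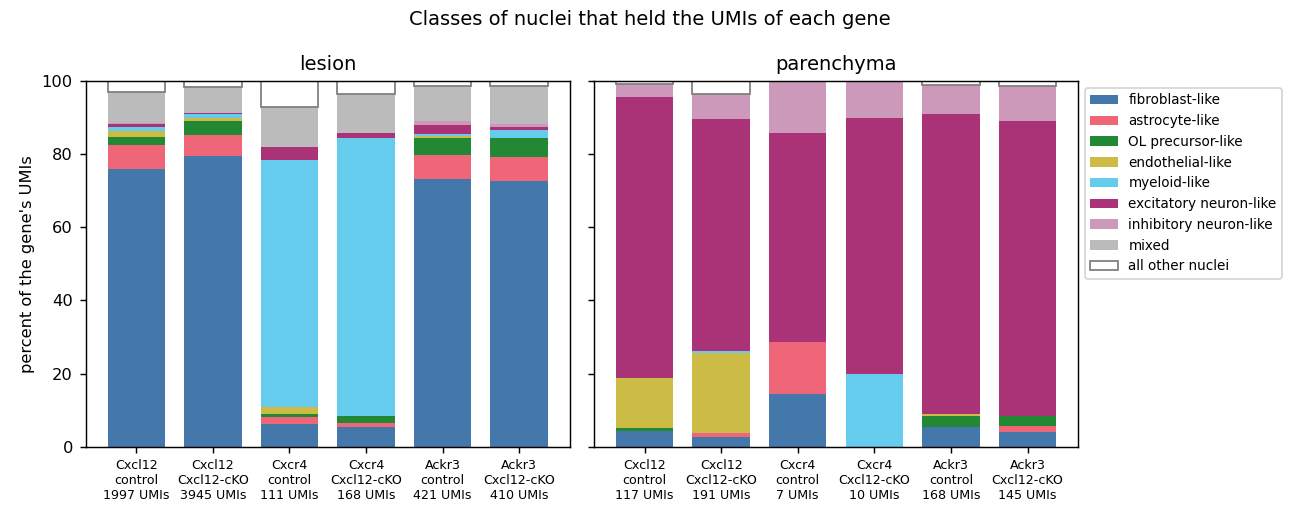
Percent of each gene's UMIs (vertical axes) held by classes of nuclei in the lesion (left) and the parenchyma (right), with 1 bar per gene and library and the number of UMIs under each bar. Fibroblast-like nuclei hold 76.1% and 79.6% of lesional Cxcl12 UMIs and myeloid-like nuclei 67.6% and 76.2% of lesional Cxcr4 UMIs, whereas excitatory neuron-like nuclei hold most UMIs of Cxcl12 and Ackr3 in the parenchyma.

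Fibroblast-like nuclei were 51.6% and 51.7% of lesional nuclei and held 76.1% and 79.6% of the Cxcl12 UMIs there. Astrocyte-like nuclei, 2.85% and 3.98% of nuclei, held 6.46% and 5.70%. Of lesional Ackr3, fibroblast-like nuclei held 73.2% and 72.7%, but 43.9% and 46.1% when each nucleus was placed by its own markers. Of lesional Cxcr4, myeloid-like nuclei held 67.6% and 76.2%, while being 18.5% and 24.5% of the nuclei. In the parenchyma endothelial-like nuclei were 0.278% and 0.458% of nuclei and held 13.7% and 22.0% of Cxcl12, and excitatory neuron-like nuclei held 76.9% and 63.4% of Cxcl12 and 82.1% and 80.7% of Ackr3.

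A list of 44 other genes of the axis was read in the same 2 lesional classes. In fibroblast-like nuclei 37 of the 44 reached 50 UMIs, of which 4 were more than 1.5-fold higher, 1 was more than 1.5-fold lower and 32 lay within, against 3.26% and 2.59% of all genes. The median log2 ratio of the list was 0.07, and 0.003 over all genes. In myeloid-like nuclei 35 genes reached the minimum, of which 0 were higher, 1 was lower and 34 lay within, against 3.23% higher and 3.95% lower over all genes. Its medians were -0.04 for the list and -0.02 for all genes.

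Among the other ligands, the 4 that reached the minimum in fibroblast-like nuclei lay within 1.5-fold. Mif, a cytokine that also binds Cxcr4 and Cd74, was counted with 87 and 112 UMIs (log2 ratio 0.33, -0.09 to 0.75). Cxcl11, an interferon-induced chemokine that also binds Ackr3, did not reach the minimum and is named after its values were seen, with 22 UMIs under the control label and 2 in the other library. Of 10 genes that process or bind the ligand 1 was higher, against 3.26% of all genes. It was Cpm, the gene of the membrane peptidase carboxypeptidase M, with 21 and 49 UMIs (log2 ratio 1.17, 0.42 to 2.00). Dpp4, a protease that cuts the amino end of the chemokine, was at 57.0 and 45.5 CPM, and Mmp2 at 34.4 and 45.8 CPM, both within 1.5-fold.

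The receptor partner Cd74 was the lower gene in both classes. Cd74, which is also the invariant chain of MHC class II, had 315 and 158 UMIs in fibroblast-like nuclei, or 22.0 and 10.8 CPM, and a log2 ratio of -1.03 (-1.32 to -0.75). In myeloid-like nuclei it had 1132 and 738 UMIs, or 315 and 138 CPM, and the ratio was -1.19 (-1.32 to -1.05). Both intervals lay below 0. The fibroblast-like levels were far under the myeloid-like ones, and the part of myeloid RNA in them was not tested. The summed myeloid markers in fibroblast-like nuclei, given below, were higher in the library labelled Cxcl12-cKO.

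Of 11 transducers in fibroblast-like nuclei 3 were higher, against 3.26% of all genes, and 8 lay within 1.5-fold. Dock2, a Rac activator known from leukocytes, had 149 and 239 UMIs (log2 ratio 0.64, 0.34 to 0.95). Ptk2b, a kinase of adhesion signalling, had 264 and 407 (0.59, 0.36 to 0.82). Vav1, another Rac activator of leukocytes, had 20 and 33 (0.67, -0.16 to 1.57), an interval that included 0. The 8 summed myeloid markers were higher too in these nuclei, at 83.1 (78.4 to 88.0) and 111 CPM (106 to 117) with none at 0, against 3839 and 2971 CPM in myeloid-like nuclei. Their part in the higher leukocyte genes was not tested. All 8 genes of receptor desensitisation and all 3 of hypoxia control that reached the minimum lay within 1.5-fold, among them Hif1a with 113 and 136 CPM.

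**Figure D5:**
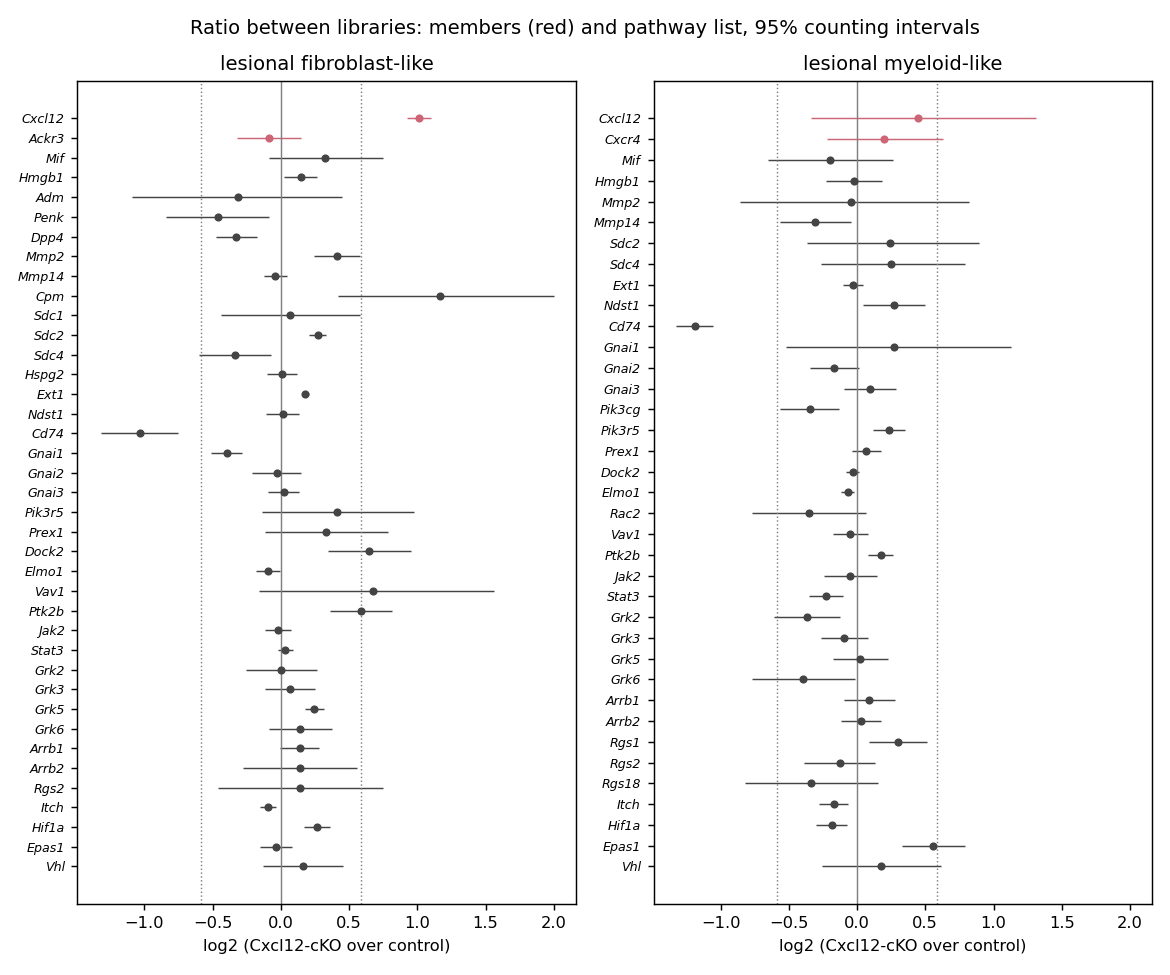
Log2 ratio of the Cxcl12-cKO over the control library (horizontal axes) for the studied genes (red) and the listed genes of the axis (black) with at least 50 UMIs, in lesional fibroblast-like (left) and myeloid-like nuclei (right), with exact 95% counting intervals and dotted lines at 1.5-fold. Cxcl12 is at 1.01 in fibroblast-like nuclei and Cd74 at -1.03 there and -1.19 in myeloid-like nuclei.

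Across 20 profiles (10 classes with at least 50 nuclei in each of the 2 libraries, on log2(CPM + 1)), the genes with the most similar pattern were ranked among 18159 genes. For Cxcl12 they were Osmr, the oncostatin M receptor, at a Pearson correlation of 0.97, Nhsl1 (0.96), the transcriptional co-activator Wwtr1 (0.96), Ctdsp2 (0.94) and Nxn (0.94). For Cxcr4 they were Naa50 (0.89), the haematopoietic transcription factor Lyl1 (0.89), the macrophage lysosomal protein Cd68 (0.88), Peds1 (0.88) and Clcn7 (0.87). For Ackr3 they were Cbx5 (0.82), Gm15402 (0.81), the glucose transporter Slc2a12 (0.80), Gm30075 (0.80) and Cpxm2 (0.80). Among the 3 genes themselves, Cxcl12 and Ackr3 correlated at 0.50, Cxcl12 and Cxcr4 at -0.02, and Cxcr4 and Ackr3 at -0.02. The profiles share libraries, depth and the same clusters, so these values describe the 20 profiles only.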

How the data were processed

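Nuclei were sorted by DAPI, and polyadenylated RNA and multiplexing tags were sequenced by droplet-based single-nucleus RNA-seq. The deposited values are raw counts: the authors made them with Cell Ranger 9.0.0 and GRCm39, according to the submitters' processing notes, as 4 matrices of UMI counts per gene and barcode, 1 for each library and region. The sources used here do not give how introns and strand were counted. No deposited column of per-sample values stayed unmapped (0 columns).

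Barcodes outside the lower and upper 2.5 percentiles of UMIs (757 to 36244) and genes (584 to 6419), or above 8.75% mitochondrial UMIs, were removed, as in the study's methods. The kept nuclei were normalised and reduced to 30 components of 3000 variable genes without Cxcl12, Cxcr4, Ackr3, sex-linked and mitochondrial genes. They were clustered with scanpy 1.11.5 and the Leiden method of igraph 0.11.9 (20 neighbours, resolution 0.25) in Python 3.11.15. Clusters and subclusters were named from marker lists when at least 3 markers were higher than in the rest and detected in at least 10% of nuclei. The thresholds for names and for mixed nuclei (markers of another lineage at a mean log2 fold of 2 or more) were set after clusters had been seen. Scrublet called 0, 1, 283 and 3 doublets in the 4 matrices and was not used as a caller. Its scores and nuclei with both Xist and Y-linked UMIs entered alternatives.

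UMIs were summed by group of nuclei and given per 1000000 UMIs of that group (CPM) with exact Poisson intervals. Shares had exact Clopper-Pearson intervals, and log2 ratios, with 0.5 UMIs added, had exact conditional binomial intervals (scipy 1.17.1). Groups with 3 or fewer UMIs in both libraries had no ratio. With 1 library per genotype no test was made. The calculation of the ratio over all genes was also run on simulated counts with planted changes. These held counting error only, so they do not cover variation between mice, dissections or libraries.

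The members, marker lists and pathway list were chosen with earlier results of these data known. Named genes were the members, the 5 most similar genes for each, and pathway genes past 1.5-fold with at least 50 UMIs. Proteins and promoters of the genes are not shown here, and genome positions are not given because the annotation used another build.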

Additional observations from a re-analysis of the deposited data

Results flagged for a closer look

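For 2 clusters the ratio of the libraries had opposite signs between the 2 female mice and between the 2 males, with each interval on its own side of 0. In the Ranbp3l-led fibroblast-like cluster of the lesion the Ackr3 log2 ratio, Cxcl12-cKO over control, was 0.70 (0.23 to 1.17) between the female mice, on 72 and 90 UMIs, and -0.53 (-1.02 to -0.04) between the male mice, on 85 and 63 UMIs. In the Ptx3-led astrocyte-like cluster the Cxcl12 log2 ratio was -0.61 (-1.06 to -0.16) between the female mice, on 85 and 83 UMIs, and 0.71 (0.07 to 1.45) between the male mice, on 24 and 84 UMIs. Each value compares 1 mouse with 1 mouse, so the difference between the sexes was not tested, and sex and mouse cannot be told apart. These 2 came from 35 pairs of ratios that could be formed for both sexes.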

How the results depend on the processing

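Over 13 settings the Cxcl12 log2 ratio of lesional fibroblast-like nuclei lay between 0.79 and 1.38 and was positive in all 13. It was 1.38 between the female mice and 0.79 between the males, and those labelled Cxcl12-cKO had 263 and 187 CPM. The Cxcr4 ratio of myeloid-like nuclei lay between -0.02 and 0.40 over 12 settings, negative only with nuclei assigned by their own markers, and the Ackr3 ratio of fibroblast-like nuclei between -0.29 and 0.12, positive only in the female mice, where the library labelled Cxcl12-cKO had 24.9 CPM against 16.8 CPM in the male. When nuclei were placed singly, by their own markers, the levels were 115 and 236 CPM for Cxcl12 (control and Cxcl12-cKO), 17.4 and 17.4 CPM for Ackr3 and 19.4 CPM for Cxcr4 in the library labelled Cxcl12-cKO. The shares of lesional UMIs were then 61.3% and 65.0% for Cxcl12, 43.9% and 46.1% for Ackr3 and, in the library labelled Cxcl12-cKO, 57.7% for Cxcr4. As the mean of the CPM of single nuclei, Cxcl12 was at 101 and 197 CPM and Ackr3 at 24.7 CPM in the library labelled control. Without thinning, the shares of nuclei with a UMI were 22.5% and 36.3% for Cxcl12, 4.62% and 5.81% for Cxcr4 and 6.01% and 5.88% for Ackr3. Alternatives chosen after seeing the data were a clustering seed of 1, mixed nuclei kept in their parent class, source shares under other assignments, and states weighted alike. Myeloid-like nuclei held 77.5% and 86.9% of lesional Cxcr4 with seed 1 and 76.6% and 86.9% with mixed nuclei kept. The oligodendrocyte precursor-like class did not form with seed 1 and had no value there. The cause of these shifts was not tested.

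The share of all genes past 1.5-fold depended on the minimum of UMIs. In fibroblast-like nuclei it was 5.36% higher and 4.26% lower (889 and 707 genes) at 20 UMIs, and 1.49% and 1.04% (158 and 110 genes) at 200 UMIs. In myeloid-like nuclei it was 5.61% and 5.93% (763 and 807 genes), and 1.17% and 1.64% (78 and 109 genes). Of the 5 genes most like each member, 5 (Cxcl12), 3 (Cxcr4) and 3 (Ackr3) stayed with a minimum of 1000 UMIs, and 3, 0 and 2 with Spearman's rho.

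No paired analysis was possible as a test, because each genotype had 1 library and 1 mouse of each sex. The ratios within each sex compare 1 mouse with 1 mouse. Depth limited Cxcr4 outside myeloid-like nuclei, Cxcl12 in mural-like and parenchymal endothelial-like nuclei, and all 3 genes in T cell-like and dendritic-like nuclei, where single UMIs set the values.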
